A study of Arabidopsis thaliana with 42 samples.

Results

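The jacalin-related lectin genes JR1, JAL33 and JAL34, neighbours on chromosome 3, were followed through 42 whole-genome arrays of Arabidopsis thaliana roots. Their loci are AT3G16470 (JR1), AT3G16450 (JAL33) and AT3G16460 (JAL34). They were chosen by locus, and they account for 3 of the 22746 non-control probe sets on the array. In the RefSeq annotation of assembly TAIR10.1 the 3 loci follow each other without another gene between them, and the annotated spans of JAL34 and JR1 overlap. Each gene was measured by 1 probe set. The roots came from 7 natural accessions (inbred wild lines), labelled Col0, Kas2, NFA8, SQ8, TAMM27, Ts5 and Var2-1, which the study also writes as Col-0, Kas-2, NFA-8, Sq-8, Tamm-27, Ts-5 and Var2-1. All seedlings grew in liquid medium with 0.5 mM ammonium succinate as the nitrogen source and 3 mM sucrose. On day 12 they received either 5 mM KNO3, which supplies nitrate, or 5 mM KCl, which supplies the same potassium without nitrogen, and whole roots were taken after 2 h. Each of the 14 groups held 3 biological replicates, numbered 1 to 3, so that each accession had 6 arrays. The samples are whole roots of wild accessions with no transgene, and in such bulk RNA fewer cells of a type and less RNA per cell cannot be told apart.

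Jacalin-related lectins are proteins that bind sugars, many of them mannose or glucose units. In Arabidopsis roots several of them are found with PYK10, a beta-glucosidase that is stored in ER bodies, spindle-shaped compartments of the endoplasmic reticulum. When a cell is broken, PYK10 and lectins of this family assemble into large complexes. JR1 (JASMONATE RESPONSIVE 1, also called JAL35) is named for its induction by jasmonate, the wound and defence hormone. JAL33 and JAL34 are known as members of the PYK10 complex group of lectins. The study selected JR1 for mutant analysis after an association scan for lateral root length, with expression on these same arrays as one criterion, so the values of JR1 here are not independent of that choice. The comparisons below ask whether nitrate changed the 3 transcripts, whether the accessions differed in level or in response, and whether the 3 neighbours varied together.

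The deposited value is a MAS5 signal, the linear brightness summary of a probe set, and values of different probe sets were not set against each other because each probe binds its target with its own strength. All 3 genes were above a signal of 100, the lower limit for detection used in the study, on 42 of 42 arrays. JR1 ranged over 294.6 to 4802.6 with a median of 1288.3, JAL33 over 246.5 to 7581.5 with a median of 1041.25, and JAL34 over 1227.8 to 16720.3 with a median of 5781.55. The comparisons between groups were made over the 12612 probe sets with a mean signal of at least 100. The median signal of an array lay between 97.8 and 157.75, and 49.5% to 62.5% of probe sets reached 100. The R2 between replicates of a group was 0.290 to 0.942, with a median of 0.65 over 42 pairs. The ratio of 3' to 5' control probe sets is a sign of RNA integrity, and a higher ratio goes with less intact RNA. It was low on 24 arrays (0.05 to 1.72 on the log2 scale) and high on 18 arrays (2.70 to 4.57). The replicate 1 arrays of Var2-1 stood apart, with ratios of 4.57 in KNO3 and 4.24 in KCl. Only the replicate 1 arrays of Kas2 were as high, at 4.44 in KNO3 and 4.49 in KCl. The Var2-1 KNO3 replicate 1 array also carried a summed signal of 23138.4 for RCA and PSAE1, genes of photosynthesis in green tissue, against at most 5626.4 on every other array. Of 5 shoot markers 2 could be named, and their sum ranged over 180.5 to 23138.4 in KNO3 and over 95.3 to 4562.9 in KCl. Accessions differed in it: in TAMM27 it was 1906.4 to 3684.4 in KNO3 and 3704.2 to 4562.9 in KCl. In Ts5 it was 734.6 to 5626.4 in KNO3 and 280.9 to 1093.8 in KCl, and in Kas2 180.5 to 1287.1 and 95.3 to 1245.3. What this signal contributes to the responses below was not tested. Root markers were not analysed here, since 0 of 8 could be named. The results that changed their call without both Var2-1 replicate 1 arrays are given below with and without them.

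Before the signals were made, the authors discarded single probe elements that behaved as outliers against Col0, in a separate list for each other accession and each salt. A probe set has 11 elements, so the signals of one gene in different accessions, and often in KNO3 and KCl of one accession, rest on different elements. The 3 lectin genes lost many. JR1 lost 30 elements over the 12 lists (0 to 5 a list), JAL33 lost 28 (0 to 5) and JAL34 lost 31 (0 to 4), where the median over all probe sets was 17. Element 6 of JAL34 was discarded in 9 of 12 lists and its element 4 in 8, element 10 of JAL33 in 8, and element 3 of JR1 in 6. For JR1 the KNO3 and KCl lists differed in all 6 accessions. JAL33 kept all 11 elements in both salts of Kas2 and had different lists in the other 5 accessions, and JAL34 lost the same 2 elements in both salts of TAMM27 and had different lists elsewhere. The widest gaps in number were those of JR1 in Ts5, with 5 elements discarded in KNO3 and 1 in KCl, and of JR1 in Var2-1, with 4 in KNO3 and 0 in KCl. Equal numbers did not mean equal elements: JR1 in TAMM27 lost 3 in each salt, of which 1 was shared. The lists of JAL33 in Ts5 differed in the most elements, 5. What these losses contribute to the differences below was not tested.

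**Figure D1:**
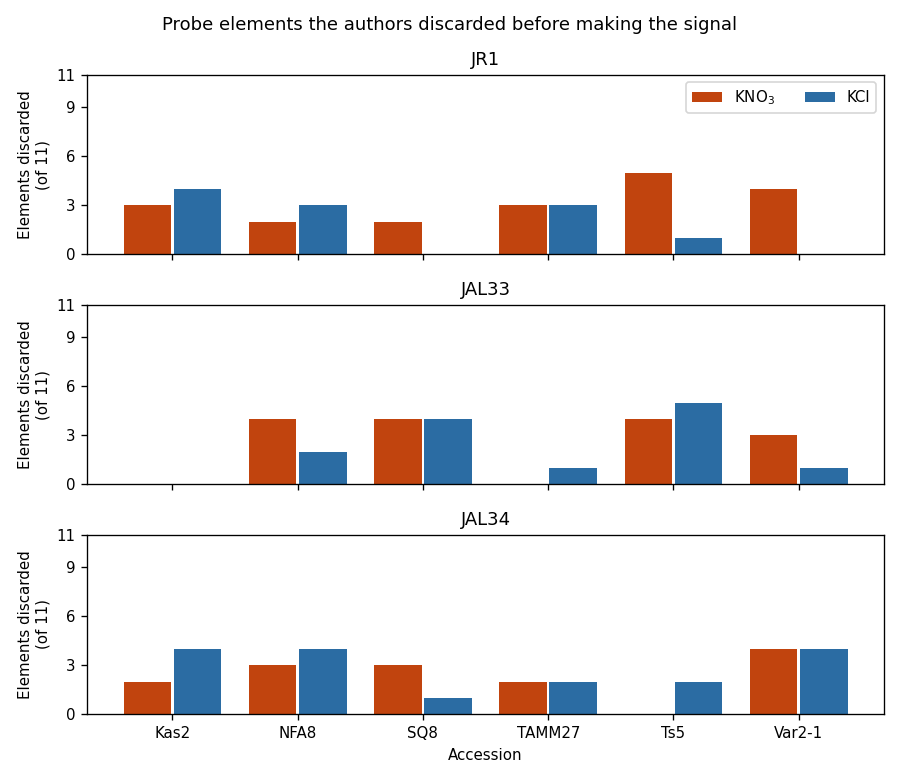
Number of probe elements, of 11, that the authors discarded for JR1, JAL33 and JAL34 (panels) in each accession but Col0, in KNO3 and in KCl (bars). JR1 in Ts5 lost 5 elements in KNO3 and 1 in KCl, and JAL33 lost none in Kas2.

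JR1 had its lowest KNO3 group in TAMM27 and its highest in Kas2. In TAMM27 the signal was 547.7, 396.8 and 479.2 in KNO3, against 2689.2, 2165.4 and 697 in KCl. All 3 KNO3 arrays lay below all 3 KCl arrays, an order that 6.3% of tested probe sets showed in TAMM27. In Ts5 the signal was 2306.9, 2001.4 and 2561.3 in KNO3, against 1324.9, 905.5 and 652.1 in KCl. Here all KNO3 arrays lay above all KCl arrays, as for 5.19% of tested probe sets in Ts5. In NFA8 the signal was 1337.4, 1251.7 and 780.4 in KNO3, against 1364, 4802.6 and 1875.6 in KCl. The groups did not overlap, with KNO3 lower, as for 7.28% of tested probe sets in NFA8, although the closest arrays differed by little (1337.4 in KNO3 and 1364 in KCl). In Kas2 the signal was 3660.6, 3991 and 1000.2 in KNO3, against 674.4, 1704 and 1384.4 in KCl, so that 1 of the 3 KNO3 arrays fell among the KCl arrays. In Var2-1 it was 294.6, 927.1 and 979.6 in KNO3, against 553.2, 1430.5 and 1408.1 in KCl, and the lowest array of each group was the replicate 1 array described above. In Col0 it was 1472.1, 964.7 and 743.5 in KNO3, against 919.3, 625.6 and 850.7 in KCl, and in SQ8 1092.6, 1437.4 and 1789.4 in KNO3, against 1817.8, 1945.2 and 818.2 in KCl. The groups of Kas2, Var2-1, Col0 and SQ8 overlapped.

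For JAL33 the KNO3 and KCl arrays overlapped in all 7 accessions. As a ratio of means, KNO3 over KCl was highest in Kas2, with signals of 3071.1, 4769.5 and 988.6 in KNO3, against 347.8, 813.2 and 1065 in KCl. As for JR1, the third KNO3 array of Kas2 was the low one. In SQ8 the signal was 1119.2, 1617.7 and 1693.6 in KNO3, against 7581.5, 2262.5 and 1318.1 in KCl, and the KCl replicate 1 array held the highest JAL33 signal of the 42 arrays. In TAMM27 it was 1436, 650.2 and 1804.4 in KNO3, against 1655.9, 2545.7 and 2392.5 in KCl. Only the highest KNO3 array passed the lowest KCl array. In NFA8 it was 246.5, 857.6 and 372.9 in KNO3, against 668.4, 1364.6 and 640.7 in KCl, and the KNO3 replicate 1 array held the lowest JAL33 signal of the 42 arrays. The means were 649.7 ± 339.0 in KNO3 and 980.1 ± 835.0 in KCl in Ts5, 804.7 ± 159.9 in KNO3 and 1286 ± 864.9 in KCl in Var2-1, and 1454 ± 738.6 in KNO3 and 1309 ± 579.3 in KCl in Col0 (SD, n = 3 each). JAL33 had the widest spread among replicates of the 3 genes, with an SD of 0.85 on the log2 scale, wider than 83.2% of tested probe sets.

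JAL34 was the steadiest of the 3, with a replicate SD of 0.55 on the log2 scale, close to the median of 0.56 over tested probe sets. In NFA8 its signal was 1940.4, 3260.5 and 1699.6 in KNO3, against 4842.7, 5761 and 5134.5 in KCl. The KNO3 arrays lay well below the KCl arrays, an order shared with 7.28% of tested probe sets. In Ts5 it was 5360.3, 4325.1 and 4750 in KNO3, against 5802.1, 7217.9 and 6691.1 in KCl. The KNO3 arrays were again lower without overlap, as for 3.72% of tested probe sets in Ts5, in the accession where JR1 had the opposite order. In Kas2 it was 16720.3, 12559.8 and 5900.4 in KNO3, against 7232.1, 5841.5 and 7528.8 in KCl, with the third KNO3 array low once more. In Var2-1 it was 1986.1, 6070.1 and 7088.3 in KNO3, against 1227.8, 4713.1 and 4801 in KCl, with the replicate 1 array the lowest in both groups. The means were 7990 ± 1835 in KNO3 and 8368 ± 1077 in KCl in TAMM27, 6468 ± 1840 in KNO3 and 5355 ± 3136 in KCl in SQ8, and 5179 ± 673.4 in KNO3 and 4608 ± 812.6 in KCl in Col0 (SD, n = 3 each). In these 3 accessions the groups overlapped. Over the 3 genes 5 of 21 comparisons of KNO3 with KCl had no overlap (23.8%), against 11.1% of comparisons over all tested probe sets.

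**Figure D2:**
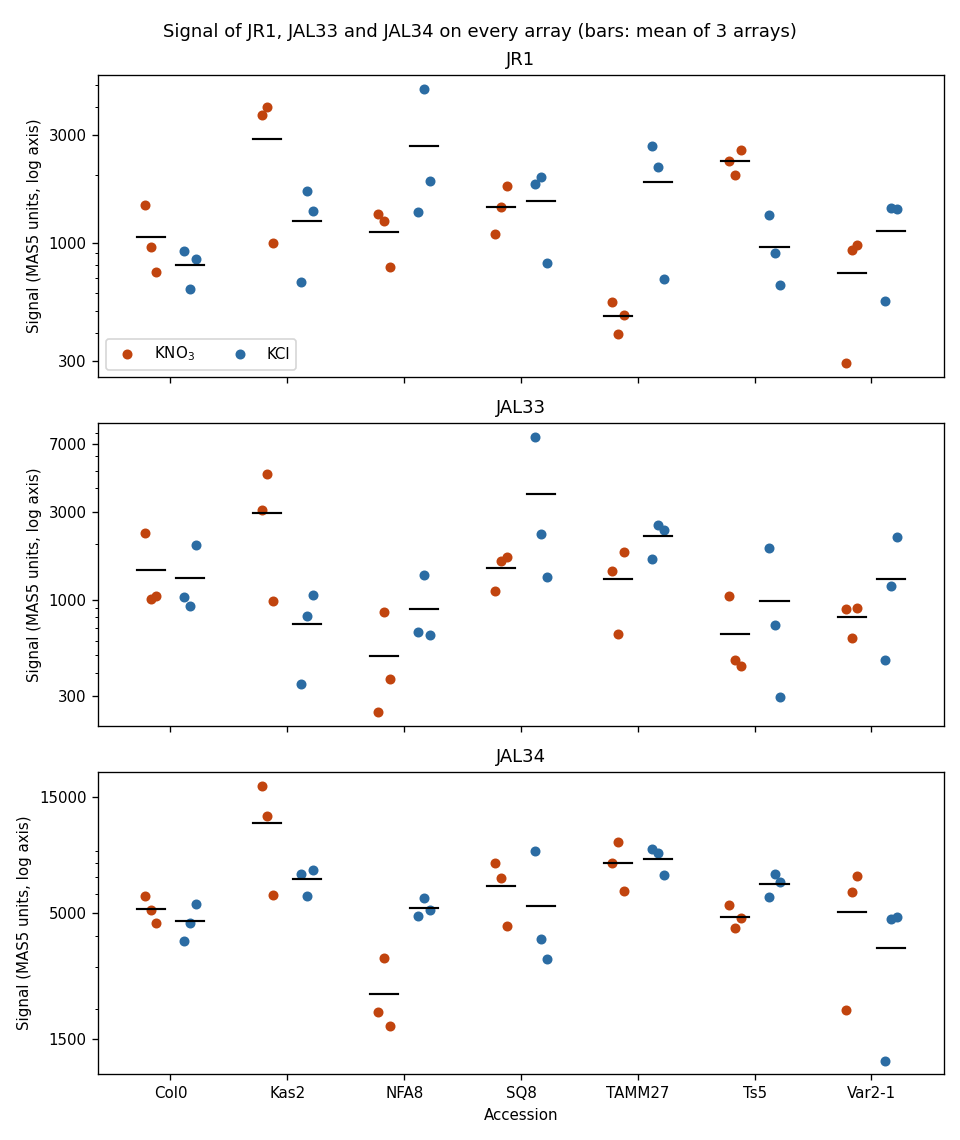
MAS5 signal (log axis) of JR1, JAL33 and JAL34 on each of the 42 arrays, by accession, with KNO3 left of KCl; points are arrays and bars are means of 3 arrays. JR1 in TAMM27, and JAL34 in NFA8 and Ts5, show KNO3 arrays below all KCl arrays, and JR1 in Ts5 shows them above.

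Averaged over the 7 accessions, none of the 3 genes passed the test of nitrate against KCl. The difference (KNO3 minus KCl, log2 of signal + 1) was -0.11 ± 0.20 for JR1 (SE, adjusted p = 0.940), -0.22 ± 0.25 for JAL33 (adjusted p = 0.877) and -0.004 ± 0.165 for JAL34 (adjusted p = 0.998) in a limma fit of all 14 groups with Benjamini-Hochberg adjustment over the 12612 probe sets. The 95% intervals ran from -0.53 to 0.30 for JR1, from -0.72 to 0.28 for JAL33 and from -0.34 to 0.33 for JAL34. The same test at the false discovery rate of 0.1 called 106 probe sets, or 0.84%. With same-numbered KNO3 and KCl arrays of an accession as blocks it called 166, and no response call for the 3 genes changed. At an unadjusted p of 0.05, where 8.71% of probe sets passed, 0 of the 3 lectin genes did so either. The nitrate treatment itself was visible in textbook targets on average over the accessions. NIR1, which encodes nitrite reductase, averaged 1.63 ± 0.35 higher in KNO3 (adjusted p = 0.0190), and RFNR2, the root ferredoxin reductase that feeds it electrons, 1.49 ± 0.32 higher (adjusted p = 0.0190). These were the 2 of 7 tested genes of the nitrate list that passed, and the list's median difference was 0.68, against -0.02 over all tested probe sets. Within each single accession 0 of the 7 passed, so a lack of calls in 1 accession says little. NRT2.1, a high-affinity nitrate transporter, differed by 1.82 ± 0.51 without passing (adjusted p = 0.121).

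Within single accessions the differences of the lectin genes were larger and of both signs, and 0 of 21 passed at the false discovery rate of 0.1 (0.319% over all tested probe sets and accessions). Without adjustment 4 of 21 had p under 0.05, against 6.25% over all. JR1 in TAMM27 had a difference of -1.76 ± 0.54 (95% interval -2.86 to -0.66, adjusted p = 0.393), where 0.182% of probe sets were called. JR1 in Ts5 had a difference of 1.31 ± 0.54 (0.21 to 2.40, adjusted p = 0.364, 0.587% of probe sets called). JAL33 in Kas2 had 1.86 ± 0.65 (0.53 to 3.19, adjusted p = 0.241, 1.17% called), and JAL34 in NFA8 had -1.24 ± 0.44 (-2.13 to -0.36, adjusted p = 1.00, 0.0238% called). Single arrays decided 2 of these 4. Without the TAMM27 KCl replicate 3 array, the low one of its group, the JR1 difference was -2.36 (adjusted p = 0.0823), and without the Kas2 KNO3 replicate 3 array the JAL33 difference was 2.51 (adjusted p = 0.0734). Both arrays had a low 3' to 5' ratio beside the others of their group, 0.95 against 2.77 and 3.58 in TAMM27 KCl, and 1.27 against 4.44 and 3.56 in Kas2 KNO3. The Kas2 KNO3 replicate 3 array was the only low-ratio array among the 6 of Kas2, while TAMM27 KNO3 replicate 3 was also low, at 0.31. The part of the ratio in these differences was not tested. The other accessions called 0% (Col0 and Var2-1) and 0.278% (SQ8) of probe sets. In Kas2 the differences of all 3 genes were positive (1.07 for JR1, 1.86 for JAL33 and 0.65 for JAL34), and in NFA8 all 3 were negative (-1.08, -0.96 and -1.24). In Col0 all 3 were within 0.37 of 0. In SQ8 they were -0.01 for JR1, -0.96 for JAL33 and 0.38 for JAL34, in TAMM27 -0.86 for JAL33 and -0.08 for JAL34, in Ts5 -0.32 for JAL33 and -0.45 for JAL34, and in Var2-1 -0.68, -0.44 and 0.54. Without both Var2-1 replicate 1 arrays the Var2-1 differences were -0.57, -1.11 and 0.46, none of them past the threshold.

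**Figure D3:**
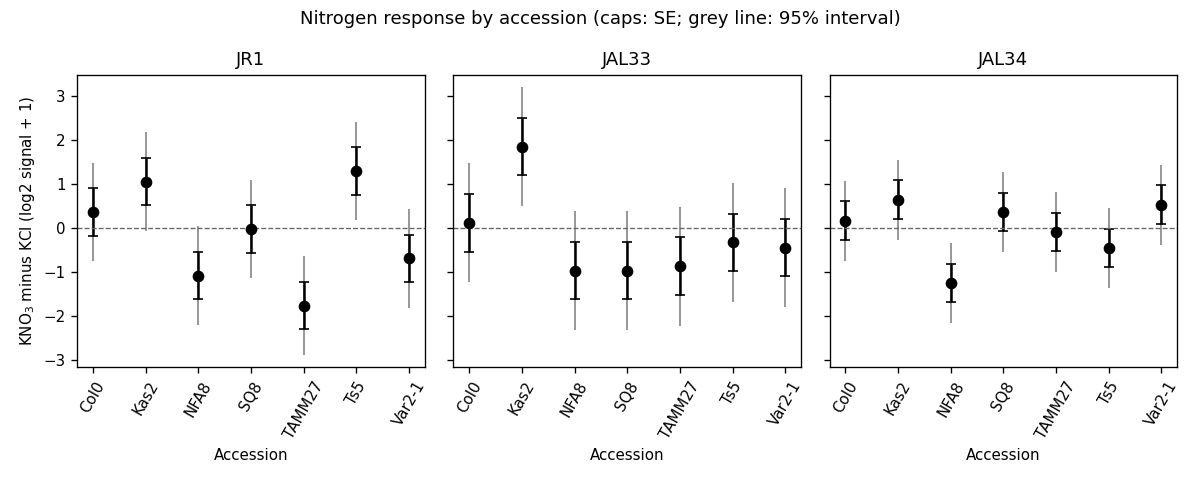
Difference between KNO3 and KCl (log2 of signal + 1, positive where KNO3 is higher) of JR1, JAL33 and JAL34 in each of the 7 accessions; points are fitted differences, capped bars are 1 SE and grey lines are 95% intervals. JR1 ran from -1.76 in TAMM27 to 1.31 in Ts5, and in Kas2 all 3 genes lay above 0.

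The question whether the accessions responded differently was tested directly by the interaction of salt and accession. JR1 had an unadjusted p of 0.00237 in limma's F-test, where 6.18% of probe sets had p under 0.05, and an adjusted p of 0.318. JAL33 (adjusted p = 0.822) and JAL34 (adjusted p = 0.823) did not pass either, and 29 probe sets (0.23%) did. The gap between the highest and lowest of the 7 responses was 3.06 for JR1, wider than in 97.0% of tested probe sets, 2.82 for JAL33 (95.8%) and 1.90 for JAL34 (81.5%), with a median of 1.23 over all. Without the low-ratio Kas2 KNO3 replicate 3 array JR1 passed, with an adjusted p of 0.0913. Each accession's response was also set against the mean of the other 6. JR1 gave -1.92 ± 0.58 in TAMM27 (adjusted p = 0.593, 0.0634% of probe sets called), 1.66 ± 0.58 in Ts5 (adjusted p = 0.309, 0.325% called) and 1.38 ± 0.58 in Kas2 (adjusted p = 0.527, 0.365% called). JAL33 gave 2.43 ± 0.71 in Kas2 (adjusted p = 0.210), and JAL34 gave -1.45 ± 0.47 in NFA8 (adjusted p = 1.00, 0.0159% called). None of the 21 such differences passed (0.125% over all probe sets and accessions, 0.103% in SQ8), while these 5 had an unadjusted p under 0.05, against 5.5% over all. That of JAL33 in Kas2 passed without the Kas2 KNO3 replicate 3 array (3.08, adjusted p = 0.0499) and without both Var2-1 replicate 1 arrays (2.54, adjusted p = 0.0985). Among the 21 pairs of accessions, 0 passed the test of their responses for any of the 3 genes. The widest pair was TAMM27 minus Ts5 for JR1, at -3.06 (95% interval -4.62 to -1.51, adjusted p = 0.148). Over all probe sets and pairs 0.085% passed.

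Levels, averaged over KNO3 and KCl, did differ among the accessions for all 3 genes. The adjusted p of limma's F-test over accessions was 0.050 for JR1, 0.0144 for JAL33 and 0.00274 for JAL34. Such differences were common on these arrays, with 60.4% of tested probe sets called. The range from highest to lowest accession was 2.07-fold for JR1, 3.38-fold for JAL33 and 2.52-fold for JAL34. Leaving out both Var2-1 replicate 1 arrays gave ranges of 1.95-fold, 3.38-fold and 2.52-fold. With all arrays the ranges were wider than those of 48.1%, 82.6% and 66.2% of tested probe sets in the same order of genes. JR1 levels on the log2 scale were 10.72 in Kas2, 10.63 in NFA8, 10.5 in Ts5, 10.47 in SQ8, 9.81 in Col0, 9.76 in TAMM27 and 9.68 in Var2-1. JAL33 levels were 10.99 in SQ8, 10.65 in TAMM27, 10.33 in Col0, 10.32 in Kas2, 9.85 in Var2-1, 9.39 in Ts5 and 9.23 in NFA8. JAL34 levels were 13.06 in Kas2, 12.98 in TAMM27, 12.45 in Ts5, 12.43 in SQ8, 12.24 in Col0, 11.84 in Var2-1 and 11.73 in NFA8. No neighbours in these 3 orders differed beyond their spread: 0 of 18 adjacent pairs passed, and the smallest adjusted p was 0.295. The orders were unlike each other. NFA8 was lowest for JAL33 and JAL34 and second for JR1, and TAMM27 was second for JAL33 and JAL34 and sixth for JR1. When both Var2-1 replicate 1 arrays were left out, the Var2-1 levels were 10.18 for JR1 and 12.45 for JAL34, and TAMM27 was lowest for JR1.

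**Figure D4:**
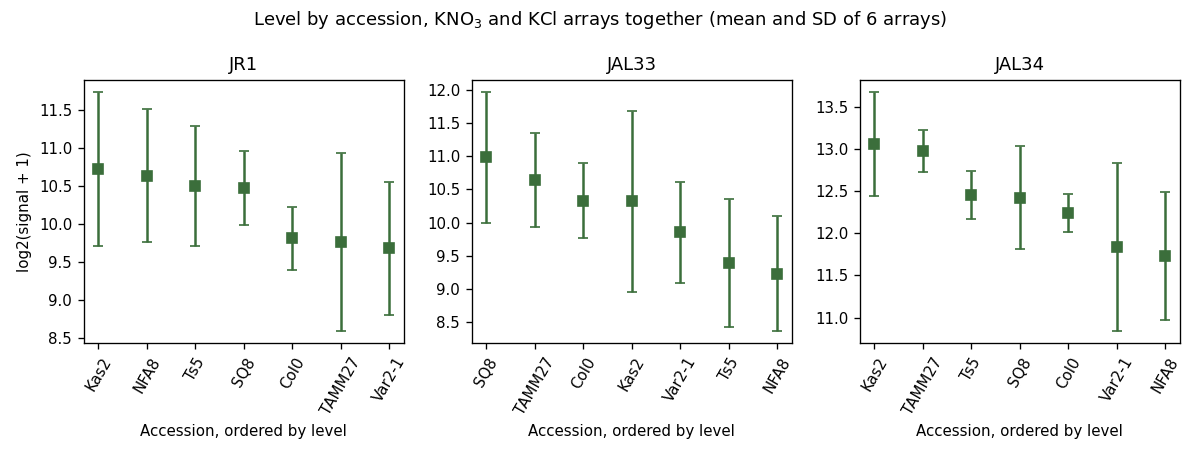
Level of JR1, JAL33 and JAL34 by accession (log2 of signal + 1, KNO3 and KCl arrays together), ordered from high to low within each gene; squares are means and bars are SDs of 6 arrays. JAL34 is highest in Kas2 (13.06) and TAMM27 (12.98), and NFA8 has the lowest JAL33 (9.23) and JAL34 (11.73).

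Pairs farther apart in these orders did differ, 12 of 63 over the 3 genes, a share close to the 17% of all probe sets and pairs. JAL34 passed in 6 of 21 pairs, among them Kas2 minus NFA8 (1.33 ± 0.31, adjusted p = 0.00516), Kas2 minus Var2-1 (1.23 ± 0.31, adjusted p = 0.00799) and NFA8 minus TAMM27 (-1.25 ± 0.31, adjusted p = 0.0102). JAL33 passed in 4 of 21 pairs. NFA8 minus SQ8 was -1.76 ± 0.46 (adjusted p = 0.0274) and SQ8 minus Ts5 was 1.60 ± 0.46 (adjusted p = 0.0264). JR1 passed in 2 of 21 pairs, Col0 minus Kas2 (-0.91 ± 0.38, adjusted p = 0.0764) and Kas2 minus Var2-1 (1.05 ± 0.38, adjusted p = 0.0782). Of the 63 pairs 17 passed without both Var2-1 replicate 1 arrays, 10 of them shared with the 12. Kas2 minus Var2-1 was then 0.54 for JR1 (adjusted p = 0.339) and 0.62 for JAL34 (adjusted p = 0.0847), and TAMM27 minus Var2-1 for JAL34 lost its call, at 0.53 (adjusted p = 0.138) against 1.15 with all arrays. Against the mean of the other 6 accessions, 5 of 21 levels passed, where 17.2% did so over all probe sets and accessions (26.7% in Col0 and 16% in Ts5). JAL34 was higher in Kas2 by 0.79 ± 0.24 (adjusted p = 0.0231, 21.6% of probe sets called) and in TAMM27 by 0.69 ± 0.24 (adjusted p = 0.0443, 22.5% called). It was lower in NFA8, at -0.77 ± 0.24 (adjusted p = 0.0675, 4.93% called), and in Var2-1, at -0.65 ± 0.24 (adjusted p = 0.0905, 11% called). JAL33 was higher in SQ8 by 1.02 ± 0.35 (adjusted p = 0.0541, 17.7% called). JAL33 in NFA8 (-1.03 ± 0.35, adjusted p = 0.113) and in Ts5 (-0.84 ± 0.35, adjusted p = 0.125) and JR1 in Var2-1 (-0.64 ± 0.29, adjusted p = 0.202) did not pass. A fit without both Var2-1 replicate 1 arrays called 7 of 21 levels, the JAL33 levels of NFA8 (-1.07, adjusted p = 0.0806) and Ts5 (-0.88, adjusted p = 0.0822) among them, and the JR1 level of Var2-1 was -0.13 (adjusted p = 0.844).

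Each of these 5 level calls was lost when some single array was left out. The JAL34 difference of Var2-1 was -0.03 (adjusted p = 0.941) without both Var2-1 replicate 1 arrays and passed in 22 of the 42 fits that left out 1 array; it was -0.32 without the KCl replicate 1 array and -0.36 without the KNO3 replicate 1 array. JAL33 in SQ8 was 0.67 (adjusted p = 0.245) without the SQ8 KCl replicate 1 array, 0.99 (adjusted p = 0.112) without KNO3 replicate 2 and 0.97 (adjusted p = 0.120) without KNO3 replicate 3. JAL34 in Kas2 was 0.63 (adjusted p = 0.140) without the Kas2 KNO3 replicate 1 array. JAL34 in NFA8 was -0.72 and -0.67 (adjusted p = 0.186 and 0.240) without KNO3 replicates 1 and 3, and -0.74 and -0.76 (adjusted p = 0.203 and 0.188) without KCl replicates 1 and 3. JAL34 in TAMM27 was 0.68 and 0.61 (adjusted p = 0.124 and 0.133) without KNO3 replicates 1 and 2, and 0.65 and 0.67 (adjusted p = 0.137 and 0.104) without KCl replicates 1 and 2.

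Over the 42 arrays the 3 genes were positively correlated on the log2 scale. The permutation tests over arrays, also those on subsets of arrays, treated replicates of a group as independent. Differences among groups therefore enter their p-values, and only the deviations given below were permuted within groups. Pearson's r was 0.510 for JAL33 with JAL34 (permutation p = 0.00077, adjusted over the 3 pairs 0.00231; Spearman's rho 0.392, permutation p = 0.0108, adjusted p = 0.0324). It was 0.359 for JR1 with JAL33 (permutation p = 0.0200, adjusted p = 0.0222; rho 0.345, permutation p = 0.0270, adjusted p = 0.0404). For JR1 with JAL34, r was 0.354 (permutation p = 0.0222, adjusted p = 0.0222), while rho was 0.167 (permutation p = 0.292, adjusted p = 0.292). Without the 2 arrays farthest from the median of the first gene, r was 0.441 for JAL33 with JAL34, 0.377 for JR1 with JAL33 and 0.289 for JR1 with JAL34, and the last no longer passed (permutation test, adjusted p = 0.0705). By rho none of the 3 passed without these arrays: it was 0.305 for JAL33 with JAL34 (permutation test, adjusted p = 0.0836), 0.334 for JR1 with JAL33 (permutation test, adjusted p = 0.0836) and 0.125 for JR1 with JAL34. Without both Var2-1 replicate 1 arrays r for JR1 with JAL34 was 0.195 (permutation test, adjusted p = 0.228), and this pair no longer passed. It also lost its call without the Kas2 KNO3 replicate 1 or 2 array or either Var2-1 replicate 1 array alone (r between 0.274 and 0.432 over all single arrays left out), and JR1 with JAL33 lost its call without the Kas2 KNO3 replicate 1 or 2 array (r between 0.289 and 0.414). Among the 21 KNO3 arrays r was 0.692 for JAL33 with JAL34 (permutation test, adjusted p = 0.00168), 0.339 for JR1 with JAL34 and 0.291 for JR1 with JAL33. Among the 21 KCl arrays it was 0.310, 0.380 and 0.435 for the same pairs, and 0 of 3 passed after adjustment.

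The correlation was also computed separately on arrays of low and of high 3' to 5' ratio. On the 24 low-ratio arrays r was 0.534 for JAL33 with JAL34 (permutation test, adjusted p = 0.0265), -0.004 for JR1 with JAL33 and -0.168 for JR1 with JAL34. On the 18 high-ratio arrays it was 0.551, 0.605 and 0.509 for these pairs, all past 0.05 after adjustment. By rho the last was 0.331 on the high-ratio arrays (permutation test, adjusted p = 0.179), and JAL33 with JAL34 was 0.261 on the low-ratio arrays (permutation test, adjusted p = 0.658), neither of which passed. By Pearson's r the pairs with JR1 thus passed over the high-ratio arrays and had r near or below 0 over the low-ratio arrays, but the difference between the sets of arrays was not tested. These sets also differed in their accessions. Col0 had 0 high-ratio arrays in either salt, while Kas2 had 3 in KCl and 2 in KNO3, so that accession levels and the ratio are mixed in these values. Within groups the genes themselves had r with the ratio of -0.08 for JR1, -0.11 for JAL33 and -0.27 for JAL34. The part of the ratio in the correlations between genes was not tested.

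When each array was expressed as its deviation from the mean of its group, r was 0.581 for JR1 with JAL33 (permutation within groups, adjusted p = 0.00177), 0.597 for JR1 with JAL34 (adjusted p = 0.00711, permutation test) and 0.464 for JAL33 with JAL34 (adjusted p = 0.0217, permutation test). On these deviations JR1 with JAL33 had r of 0.468 on low-ratio and 0.678 on high-ratio arrays. JR1 with JAL34 had 0.551 and 0.669, and JAL33 with JAL34 had 0.633 and 0.311. The group means were taken over arrays of both ratios, so a deviation in a mixed group also holds the contrast between them. These values therefore do not hold the ratio constant. Without both Var2-1 replicate 1 arrays r was 0.604 for JR1 with JAL33 (permutation test, adjusted p = 0.00279), and it was 0.419 for JR1 with JAL34 (permutation test, adjusted p = 0.0745) and 0.478 for JAL33 with JAL34 (permutation test, adjusted p = 0.0664), neither of which passed. The call for JAL33 with JAL34 was also lost without Kas2 KNO3 replicate 3, SQ8 KCl replicate 1 or Var2-1 KCl replicate 1 (r between 0.365 and 0.554). Over the 6 arrays of a single accession, as a description, the deviations had r of -0.84 in TAMM27 and -0.14 in Ts5 for JAL33 with JAL34, -0.34 in Ts5 for JR1 with JAL34 and -0.04 in TAMM27 for JR1 with JAL33, and were above 0 in the other accessions. The 7 accession means, in contrast, gave r of -0.249 for JR1 with JAL33, 0.131 for JR1 with JAL34 and 0.572 for JAL33 with JAL34, as a description over 7 points. Among the 12611 other tested probe sets, JAL34 stood 21st in correlation with JAL33 over the arrays, whereas JAL33 and JAL34 stood 496th and 524th in correlation with JR1. On deviations from group means JAL33 and JAL34 stood 66th and 46th for JR1, while JAL34 stood 392nd for JAL33. In correlation with JAL34, JAL33 stood 47th over the arrays and 652nd on deviations, and JR1 stood 486th and 163rd.

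**Figure D5:**
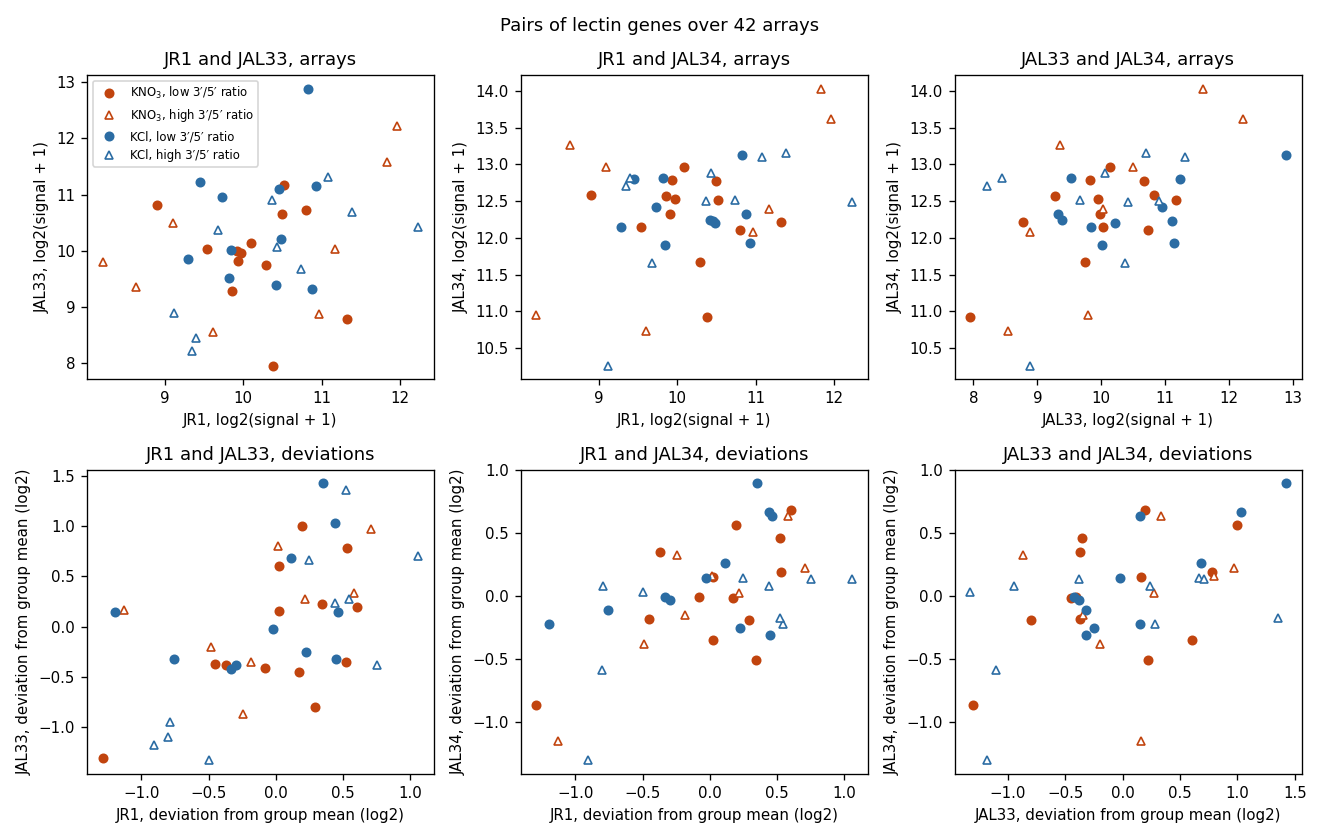
Each pair of the 3 lectin genes over the 42 arrays, as log2(signal + 1) (top) and as deviation from the group mean (bottom); colours are KNO3 and KCl, filled circles stand for a low 3' to 5' ratio (24 arrays) and open triangles for a high one (18 arrays). JAL33 with JAL34 has r of 0.510 (top right), and the deviations of JR1 with JAL33 have r of 0.581 (bottom left).

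The responses to nitrate of the 7 accessions were also compared between genes. The response of JR1 and that of JAL33 had the same sign in 6 of 7 accessions, those of JAL33 and JAL34 in 5 and those of JR1 and JAL34 in 4. Pearson's r over the 7 accessions was 0.636 for JR1 with JAL33 (exact permutation p = 0.109, adjusted p = 0.326; rho 0.714, exact p = 0.0881, adjusted p = 0.264). It was 0.512 for JAL33 with JAL34 (exact permutation p = 0.228, adjusted p = 0.342; rho 0.536, exact p = 0.236, adjusted p = 0.354). For JR1 with JAL34 it was 0.286 (exact permutation p = 0.544, adjusted p = 0.544; rho 0.250, exact p = 0.595, adjusted p = 0.595). None of the 3 passed. Leaving out the 2 accessions farthest from the median of the first gene gave r of 0.843 for JR1 with JAL33 over 5 accessions (exact permutation p = 0.0583, adjusted p = 0.175), 0.671 for JR1 with JAL34 and 0.234 for JAL33 with JAL34.

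The probe sets most like each lectin gene were ranked by Pearson's r over the 42 arrays. Both values of a point come from 1 array, so these values describe the arrays and carry no test. For JR1 the first 4 were AT2G17500 (r 0.744), FACT, which encodes a caffeoyl transferase of fatty alcohols (0.733), AT5G38020 (0.730) and AT5G38030 (0.706), followed by a probe set that is unnamed in the sources used here (0.686). Both AT5G38020 and AT5G38030 stayed close to JR1 within groups (0.714 and 0.736). For JAL33 the first were AT4G23670 (0.669) and AT5G39090 (0.667), and then 3 unnamed probe sets (0.589, 0.561 and 0.556). For JAL34 they were AT4G16830 (0.667), an unnamed probe set (0.639), ACLA-3, which encodes a subunit of ATP-citrate lyase (0.632), AT1G31710 (0.628) and RD2 (0.616). The 3 lists of 5 shared no probe set.

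Genes of ER bodies and the PYK10 complex were followed as a list of 15, of which 5 others than the 3 lectins were named and tested. None of the 5 passed the test of nitrate against KCl on average (median difference 0.19). The nearest was MVP1, a GDSL lipase-like protein of the endoplasmic reticulum, at 0.49 ± 0.14 (adjusted p = 0.118). MVP1 passed in 1 accession, Kas2, where the difference was 2.15 (adjusted p = 0.00101) with mean signals of 1543.7 in KNO3 and 345.3 in KCl. It was followed by PYK10 at 0.33 ± 0.17 (adjusted p = 0.603) and NAI1, the transcription factor needed for ER bodies, at 0.19 ± 0.15 (adjusted p = 0.784). On deviations from group means PYK10 had r of 0.618 with JR1, 0.640 with JAL33 and 0.610 with JAL34, ranks 29, 29 and 133 among 12611 probe sets. Its r was 0.616 with JR1, 0.538 with JAL33 and 0.612 with JAL34 on low-ratio arrays, and 0.620, 0.723 and 0.628 on high-ratio arrays. These too are deviations from group means over arrays of both ratios, and do not hold the ratio constant. Without both Var2-1 replicate 1 arrays the r of PYK10 was 0.648, 0.60 and 0.513. NAI2, a protein of the ER body itself that was singled out after its values were seen, had r of 0.553 with JR1, 0.459 with JAL33 and 0.765 with JAL34, the last at rank 6, and 0.361, 0.446 and 0.532 without both Var2-1 replicate 1 arrays. The others stood lower in these ranks. NAI1 had r of 0.226, 0.364 and 0.394 with JR1, JAL33 and JAL34 (ranks 2528, 982 and 1112), and MVP1 had r of 0.117, 0.096 and 0.279 (ranks 4426, 4596 and 2209). The fifth, the lectin JAL22, is given at the end. The median r of the 5 genes was 0.364 for JR1, 0.459 for JAL33 and 0.394 for JAL34, against 0.03, 0.002 and 0.004 over all tested probe sets. All 5 were above 0 for each lectin, as were 54.7% of all tested probe sets for JR1, 50.3% for JAL33 and 50.5% for JAL34, but MVP1 had r of -0.164 with JR1 and -0.138 with JAL34 once both Var2-1 replicate 1 arrays were left out. The level of the 2 shoot markers within groups is given beside these values, and its part in them was not tested. RCA and PSAE1 of the shoot list had r of -0.32 and -0.44 with JR1, 0.16 and -0.02 with JAL33, and -0.25 and -0.51 with JAL34 within groups. They were -0.18 and -0.25 with JR1, 0.12 and -0.04 with JAL33, and -0.03 and -0.28 with JAL34 without both Var2-1 replicate 1 arrays.

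Of the jasmonate genes, 6 of 23 were named and tested. AOS, which encodes the allene oxide synthase of jasmonate synthesis, averaged 0.98 ± 0.17 higher in KNO3 (adjusted p = 0.00479). Its response differed among accessions (limma's F-test of the interaction, adjusted p = 0.0331). It passed in Kas2 and SQ8 alone, and AOS was lower in KNO3 in Ts5. In SQ8 the mean AOS signal in KCl was under the lower limit for detection, so the size of that response is uncertain. The other 5 genes did not pass on average. MYC2, a transcription factor of jasmonate signalling, differed by 0.41 ± 0.17 (adjusted p = 0.429) and JAZ1, a repressor of it, by 0.41 ± 0.20 (adjusted p = 0.559), and the median of the list was 0.21. In Kas2 alone MYC2 passed, at 2.13 (adjusted p = 0.0123), with mean signals of 1246 in KNO3 and 254.3 in KCl. Within groups the r of AOS was 0.151 with JR1, 0.318 with JAL33 and 0.255 with JAL34. MYC2 had r of 0.198 with JR1, 0.223 with JAL33 and 0.585 with JAL34, and the last was 0.599 without both Var2-1 replicate 1 arrays. CYP94C1, an enzyme of jasmonate turnover that was singled out after its values were seen, had r of 0.574 with JR1, 0.443 with JAL33 and 0.245 with JAL34. Over the 42 arrays without subtraction of group means, r with JR1, JAL33 and JAL34 was -0.030, -0.049 and 0.262 for AOS. It was 0.301, 0.106 and 0.193 for MYC2, and 0.529, 0.208 and 0.276 for CYP94C1. Of 17 genes in the chromosome 3 interval around the lectins 6 were named, IQD26 (AT3G16490) among them with a mean signal of 80.5, under the limit. AT3G16350 averaged -0.09 ± 0.16 (adjusted p = 0.940) and AT3G16370 -0.11 ± 0.37 (adjusted p = 0.975) between KNO3 and KCl. Within groups AT3G16350 had r of -0.02 with JR1, 0.341 with JAL33 and 0.02 with JAL34, and AT3G16370 had r of -0.325, -0.383 and -0.598 with the same genes. Among other jacalin-related lectins, JAL23 was below the limit (mean signal 15.4) and JAL22 was tested. JAL22, named here after its values were seen, averaged 0.06 ± 0.32 (adjusted p = 0.985) and had r of 0.364 with JR1, 0.508 with JAL33 and 0.243 with JAL34 within groups (ranks 871, 239 and 2638).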

How the data were processed

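The 42 ATH1 arrays hold roots of 7 accessions in KNO3 or KCl, 3 replicates a group, as GEO's labels give them. The deposited values are linear MAS5 signal intensities; the authors discarded outlier probe elements, by accession and salt, before computing them. What they did to scale arrays is not given in the sources used here. From them log2(signal + 1) was computed, with a pseudocount of 1. limma 3.58.1 (R 4.3.3) was fitted to the 14 group means with a mean-variance trend over the 12612 non-control probe sets with a mean signal of at least 100, adjusted by Benjamini-Hochberg at 0.1. Correlations used 100000 permutations, or all 5040 pairings for 7 accessions, at 0.05 over the 3 pairs (Python 3.11.15). The labels call the replicates biological, and the methods describe successive trials, each from its own sowing, without modelling them as blocks. The scripts were tested on simulated data. The number of arrays limits the precision.

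Gene names came from the platform annotation (13367 probe sets with 1 nuclear gene, 503 with several, 8730 without an entry), with 886 more from the study's table of called genes. JR1's probe set was named because its 14 group means matched 1 row only. The members and lists were chosen with earlier results of these data known. Named were the 3 lectins, genes of their interval, up to 3 genes a list by p of the averaged response, other lectins that passed a test, and the 5 probe sets most like each member. The glucosinolate list had 0 of 14 genes tested. Comparisons of pairs of accessions, results without both Var2-1 replicate 1 arrays, deviations on low-ratio and high-ratio arrays, and removal of the ratio before correlation were added after seeing the data. Alternatives were quantile normalization, a pseudocount of 16, no filter, annotated probe sets alone, no variance trend, the methods' ANOVA, replicate blocks, the RNA ratio (3' to 5') added as covariate, and each array left out.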

Additional observations from a re-analysis of the deposited data

Results flagged for a closer look

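AOS, the jasmonate synthesis gene of the list above, had a nitrate response that differed among accessions in limma's test of the interaction (adjusted p = 0.0331). Its difference between KNO3 and KCl on the log2 scale was 2.92 in SQ8 (adjusted p = 0.00336), 1.99 in Kas2 (adjusted p = 0.0276), 0.97 in TAMM27, 0.72 in NFA8, 0.65 in Var2-1, 0.62 in Col0 and -1.01 in Ts5, the last 5 not past the threshold. In SQ8 its mean signal was 314.1 in KNO3 and 53.3 in KCl, and in Ts5 it was 275.9 in KNO3 and 616 in KCl. The SQ8 mean in KCl lay under the lower limit for detection used in the study. The difference of 2.92 in SQ8 therefore rests on a KCl signal under that limit, and its size is uncertain. The part of this low signal in the interaction was not tested. No test of single arrays as outliers was made, since every group held 3 arrays.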

How the results depend on the processing

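Of 513 values under other settings, over 58 results, 490 kept their direction and call (counts, within 1.5 times), as did 2340 of 2436 values with 1 array left out. The difference of JR1 in SQ8 turned to 0.035 after quantile normalization. The count of probe sets called for the averaged response was 52 with annotated probe sets alone (fewer were tested), 166 with the replicate block within accession and 255 with the RNA ratio (3' to 5') added as covariate. Interaction calls were 13, 103 and 60 with annotated probe sets alone, with the ratio and without both Var2-1 replicate 1 arrays, and accession calls were 3944 with annotated probe sets alone. Except for the first, the cause was not tested. Same-numbered KNO3 and KCl arrays deviated together in 3 of 7 accessions, where every pair had r above 0.1 (0.23 to 0.25 in Col0, 0.44 to 0.69 in TAMM27 and 0.38 to 0.43 in Var2-1), and not in the other 4; in all, 13 of 21 pairs had r above 0.1 and 26 of 42 arrays correlated best with their own number. The replicate block over all groups gave 125 averaged calls, and neither block changed a response or interaction call for the 3 genes. Levels were not fitted with the block within accession, so that block could not bear on the level calls.

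Without both Var2-1 replicate 1 arrays, 1 of 21 differences from the other 6 accessions passed (JAL33 in Kas2), and r was 0.195 for JR1 with JAL34, 0.419 for their deviations and 0.478 for those of JAL33 with JAL34, none past 0.05. With no filter 3 of 21 levels passed, JAL34 in NFA8 (adjusted p = 0.105) and Var2-1 (adjusted p = 0.134) being lost. JAL34 was also lost in NFA8 after quantile normalization (-0.67, adjusted p = 0.119), and in Var2-1 without the variance trend (adjusted p = 0.104) and in the methods' ANOVA (adjusted p = 0.112), while JAL33 in NFA8 passed with the ratio as covariate (-1.08, adjusted p = 0.0914). With 1 array left out, the adjusted p of the JR1 interaction ran from 0.0913 to 0.590, interaction calls from 20 to 46, own responses passing from 0 to 1, differences from the other 6 from 0 to 1, and levels from 3 to 8. The response ran from -0.41 to 0.21 for JR1 in SQ8, -0.26 to 0.46 for JAL33 in Col0, -0.98 to 0.36 for JAL33 in Ts5, -1.02 to 0.080 for JAL33 in Var2-1, -0.097 to 0.078 for JAL34 on average, -0.25 to 0.091 for JAL34 in TAMM27 and -0.11 to 1.11 for JAL34 in Var2-1, none of them called. Correlations over arrays ran from 0.289 to 0.414 for JR1 with JAL33 and 0.274 to 0.432 for JR1 with JAL34, and deviations from 0.365 to 0.554 for JAL33 with JAL34. With 3 arrays a group the SE of a response was 0.44 to 0.65 on the log2 scale, which limits what could be called.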
